A study of Mus musculus with 13 samples.

Results

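Gene expression in irradiated submandibular glands that had received a neurturin vector was compared with that in glands that were never irradiated. The comparison took in 8 of the 13 RNA-seq libraries of the study, namely the 5 libraries labelled PreIR-NTN and the 3 labelled NonIR, over every gene row of the deposited count table, and the groups were taken from the labels without reference to any measured value. PreIR-NTN mice had received Cere-120, an adeno-associated virus of serotype 2 (AAV2) that carries the neurturin gene, 10 days before irradiation of the gland. The 5 PreIR-GFP libraries, whose values stand beside some results, came from mice given AAV2-GFP at the same time and then irradiated. NonIR mice were not irradiated, and the sources used here do not say whether a vector was injected into them, so irradiation and vector cannot be told apart in this comparison. All mice were of the strain written CH3 in the labels and 1 year old, and every gland was taken 300 days after treatment. The sources used here state no radiation dose, no promoter of the vector and no time of day.

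The submandibular gland is a major salivary gland whose acinar cells make saliva under the control of parasympathetic nerves, and whose granular convoluted tubules, in rodents, store growth factors and kallikreins. Neurturin is a ligand of the GDNF family that keeps parasympathetic neurons alive by binding the co-receptor Gfra2, which then activates the receptor tyrosine kinase Ret. Irradiation of salivary glands is known to reduce saliva flow, and DNA damage is known to induce target genes of the transcription factor p53.

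The PreIR-NTN libraries held 11434808 to 15378199 reads, the PreIR-GFP libraries 9724304 to 16771004 and the NonIR libraries 12662279 to 13745800. The 10 most abundant genes took 39.5% to 50.6% of reads in PreIR-NTN and 43.1% to 48.1% in NonIR libraries. Levels are given in CPM, read counts scaled to a common library size by TMM, and are not corrected for gene length, so they compare libraries and not genes. Since no label says that replicates are different animals, p-values measure the spread between these libraries. Defining markers of the gland were abundant in both groups: Prol1, an acinar product, averaged 41763 ± 8882 CPM in PreIR-NTN and 45876 ± 5564 CPM in NonIR libraries (SD, n = 5 and 3), and Egf of the granular tubules 1074 ± 336 CPM in PreIR-NTN and 1291 ± 288 CPM in NonIR libraries. Skeletal muscle markers summed to 3.73 to 4.81 CPM in PreIR-NTN and 3.49 to 4.58 CPM in NonIR libraries, and fat markers to 12.4 to 246 CPM in PreIR-NTN and 26.1 to 66.8 CPM in NonIR libraries, with the highest fat sum in PreIR-NTN replicate 3. Muc10, another acinar marker, had no entry under that symbol.

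The vector's product was measured first. Nrtn, which encodes neurturin, stood at 10.9, 3.28, 4.81, 6.89 and 12.8 CPM in PreIR-NTN, against 2.33, 5.15 and 7.11 CPM in NonIR libraries, and the groups overlapped (log2 fold change 0.67, 95% interval −0.60 to 1.94, edgeR adjusted p = 0.821). Without PreIR-NTN replicate 5 its log2 fold change was 0.42, without NonIR replicate 1 it was 0.35, and without NonIR replicate 3 it was 1.05. PreIR-GFP libraries averaged 6.21 ± 3.62 CPM (SD, n = 5). Whether the vector's copy could be aligned to the mouse gene is not stated. The table also holds an entry for EGFP and one for AAV2, and both had 0 reads in all 13 libraries, whose floor of 3 reads is 0.176 to 0.253 CPM in the 8 libraries compared. A 3rd transgene entry, labelled beta-lac, held 6, 6, 1, 2 and 0 reads in PreIR-NTN and 2, 5 and 5 reads in NonIR libraries. Floors and counting intervals here leave out everything but counting error, as amplified reads without molecular identifiers are not independent molecules. Neither receptor gene passed the test. Gfra2 lay at 0.645, 0.176, 0.244, 0.435 and 0.238 CPM in PreIR-NTN, against 0.342, 0.844 and 0.817 CPM in NonIR libraries (log2 fold change −0.91, 95% interval −2.15 to 0.34, edgeR adjusted p = 0.751). Ret, the signalling receptor, averaged 29.9 CPM in PreIR-NTN and 27.1 CPM in NonIR libraries (log2 fold change 0.14, 95% interval −0.30 to 0.58, edgeR adjusted p = 0.901). Ncam1, an adhesion molecule that can also serve as a receptor for GDNF, had 26.96, 26.3, 27.4, 21.97 and 36.6 CPM in PreIR-NTN, against 40.6, 40.8 and 41.4 CPM in NonIR libraries, with no overlap and no call (log2 fold change −0.56, 95% interval −0.91 to −0.20, edgeR adjusted p = 0.417).

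Of 14727 genes tested, 3 differed between PreIR-NTN and NonIR glands at an adjusted p under 0.05, 0.0204% of the genes tested. Gm37795 and Ccdc62 rose (0.0136%) and Slitrk4 fell (0.00679%). Gm37795, a transcript model annotated without a protein product, had 144, 99.8, 126, 139 and 159.7 CPM in PreIR-NTN, against 37.02, 44.1 and 32.4 CPM in NonIR libraries. The lowest PreIR-NTN library held far more than the highest NonIR library, for a log2 fold change of 1.82 (SE 0.24, 95% interval 1.31 to 2.33, edgeR quasi-likelihood with Benjamini-Hochberg adjustment, adjusted p = 0.0182). Ccdc62, which encodes a coiled-coil protein, had 9.11, 12.7, 13.03, 9.498 and 11.8 CPM in PreIR-NTN, against 5.27, 3.71 and 4.58 CPM in NonIR libraries, again without overlap (log2 fold change 1.31, 95% interval 0.91 to 1.71, edgeR adjusted p = 0.0227). Slitrk4, a transmembrane protein of neurons, was near the detection floor: its libraries held 1, 0, 0, 1 and 1 reads in PreIR-NTN, against 10, 13 and 10 in NonIR. The summed 3 and 33 reads gave a ratio of PreIR-NTN to NonIR of 0.0505 with a 95% counting interval of 0.00991 to 0.161 (edgeR adjusted p = 0.0227). PreIR-GFP libraries averaged 108 ± 33.6 CPM for Gm37795, 10.8 ± 1.55 CPM for Ccdc62 and 0.186 ± 0.119 CPM for Slitrk4 (SD, n = 5). Against the same NonIR libraries 5 genes passed in PreIR-GFP (0.0340% of genes tested), each with an edgeR adjusted p = 0.0452. They were Gm37795 (log2 fold change 1.52), Ccdc62 (1.25), Tef (1.15), Rab27a (−1.01) and Il1rn (−1.54).

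How many genes passed depended on single libraries. No gene passed without PreIR-NTN replicate 3 or 5 or without NonIR replicate 2 or 3, and 1 passed without PreIR-NTN replicate 2, while without NonIR replicate 1 the 2 genes that passed were Ctxn3 and Cst10. At an unadjusted p under 0.05 stood 1174 genes, 7.97% of those tested, and in 960 genes, 6.52%, the libraries of the groups did not overlap. The log2 fold change itself moved little when any 1 of the 13 libraries was left out, between 1.72 and 1.94 for Gm37795 and between 1.19 and 1.46 for Ccdc62. Their adjusted p exceeded 0.05 in some of these fits, and that of Slitrk4 did in all 8 that left out a PreIR-NTN or NonIR library (0.0503 to 0.25), with log2 fold changes of −4.30 to −3.70. DESeq2 called 31 genes, 12 higher and 19 lower, among them Gm37795 and Ccdc62 (log2 fold changes of 1.82 and 1.30). It gave 5145 genes, Slitrk4 among them, no adjusted p.

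**Figure D1:**
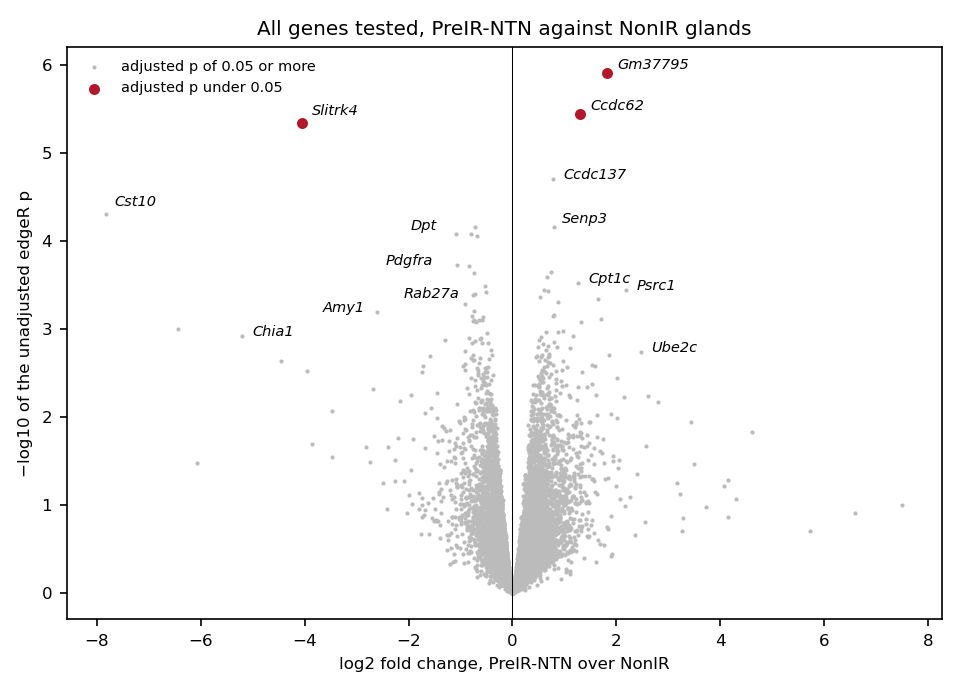
Log2 fold change of PreIR-NTN (n = 5) over NonIR (n = 3) libraries on the x axis against −log10 of the unadjusted edgeR p on the y axis, 1 point per gene tested. The 3 genes past an adjusted p of 0.05 are in red: Gm37795 at 1.82 and Ccdc62 at 1.31 lie to the right and Slitrk4 at −4.06 to the left, and other named points in grey did not pass.

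The positions of both genes that rose touch another annotated gene. On GRCm38, Gm37795 lies at chr4:150068539-150070997 on the + strand, and its start overlaps the end of the hairpin of Mir34a (chr4:150068454-150068555, same strand), the gene of a microRNA that p53 is known to induce. The Mir34a entry itself held 0 reads in PreIR-NTN, 0 in PreIR-GFP and 1 in NonIR libraries, and library preparation of this kind does not measure mature microRNAs. Gm13648, a processed transcript on chromosome 4, was among the genes with lower values (9.46, 10.4, 10.3, 13.8 and 8.57 CPM in PreIR-NTN, against 25.4, 19.7 and 14.5 CPM in NonIR libraries, log2 fold change −0.92, 95% interval −1.37 to −0.47, edgeR adjusted p = 0.28) and spans the hairpins of Mir200a, Mir200b and Mir429 on its own strand. It overlaps Ttll10 on that strand, and Ttll10 averaged 5.05 CPM in PreIR-NTN and 5.37 CPM in NonIR libraries. The mature microRNAs of these loci are printed because the transcript models that overlap them differ between the groups in opposite directions, Gm37795 past the edgeR threshold and Gm13648 past that of DESeq2 alone (adjusted p = 0.0459); they were chosen after the values were seen. Sequences are from RefSeq (GRCm38.p6), 5′ to 3′, with the seed (bases 2 to 8) in capitals.
miR-34a-5p: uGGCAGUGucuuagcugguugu
miR-200a-3p: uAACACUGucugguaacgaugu
miR-200b-3p: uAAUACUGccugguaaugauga
miR-429-3p: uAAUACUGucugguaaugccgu
The seeds of miR-200b-3p and miR-429-3p are identical, and those of miR-34a-5p and miR-200a-3p differ from them and from each other.

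Ccdc62 lies at chr5:123930679-123969895 on the + strand and is overlapped on that strand by Gm43518 (chr5:123927418-123938388), so reads in the shared stretch could belong to either gene. Its 250 bases upstream of the RefSeq start (chr5:123930439-123930688 (+ strand), GRCm38.p6) are shown because it is the called gene for which the table holds a promoter. Neither the E-box CACGTG nor the D-box TTANGTAA, motifs of the circadian clock, is written in this window on either strand.
Ccdc62: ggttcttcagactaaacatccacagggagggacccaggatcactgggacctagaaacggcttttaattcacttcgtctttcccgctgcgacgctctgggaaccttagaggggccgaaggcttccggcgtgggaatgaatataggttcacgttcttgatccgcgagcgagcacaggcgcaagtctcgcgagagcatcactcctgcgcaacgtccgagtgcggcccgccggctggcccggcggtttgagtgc

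Target genes of p53 stood higher in PreIR-NTN glands as a group, with single exceptions. All 25 members of the list were tested, and 21 had a positive and 4 a negative log2 fold change, with a median of 0.50 beside 0.0029 over all genes tested. With 1 library of either group left out the list median lay between 0.33 (without PreIR-NTN replicate 5) and 0.54 (without PreIR-NTN replicate 2). None passed the adjusted threshold in edgeR or DESeq2. At an unadjusted edgeR p under 0.05, 8 were higher and 1 lower, where 4.28% of all genes tested were higher and 3.69% lower. In 6 members every PreIR-NTN library lay above every NonIR library, and in 1 below, against 3.22% and 3.30% of all genes. The median of the same list was 0.26 for PreIR-GFP over NonIR and 0.090 for PreIR-NTN over PreIR-GFP; the first of these shares the NonIR libraries with the main comparison.

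Psrc1, a spindle protein and p53 target, had 1.36, 1.35, 0.978, 0.725 and 1.59 CPM in PreIR-NTN, against 0.274, 0.253 and 0.245 CPM in NonIR libraries (log2 fold change 2.18, 95% interval 1.16 to 3.20, edgeR adjusted p = 0.263). All 5 PreIR-NTN values were above the 3 NonIR values, which lie close to the floor of 3 reads. Cdkn1a, which encodes the cyclin-dependent kinase inhibitor p21, had 32.6, 13.3, 21.3, 16.97 and 42.5 CPM in PreIR-NTN, against 8.08, 12.4 and 11.9 CPM in NonIR libraries (log2 fold change 1.23, 95% interval 0.32 to 2.14, edgeR adjusted p = 0.516). PreIR-NTN replicates 1 and 5 were the highest, and the lowest PreIR-NTN library still lay above the highest NonIR one. Eda2r, the receptor for ectodysplasin-A2 in the TNF receptor family, had 5.95, 4.69, 4.97, 6.38 and 3.81 CPM in PreIR-NTN, against 3.08, 3.12 and 2.53 CPM in NonIR libraries (log2 fold change 0.82, 95% interval 0.28 to 1.37, edgeR adjusted p = 0.45). Gdf15, a secreted stress cytokine, averaged 1.002 ± 0.366 CPM in PreIR-NTN and 0.365 ± 0.132 CPM in NonIR libraries (log2 fold change 1.44). Sesn2, a stress sensor that restrains mTORC1, averaged 4.73 CPM in PreIR-NTN and 2.85 CPM in NonIR libraries (log2 fold change 0.73), and Aen, a nuclease of apoptosis, 4.37 CPM in PreIR-NTN and 2.97 CPM in NonIR libraries (0.55). The apoptosis gene Bax (0.52) and the damage gene Phlda3 (0.50) had an unadjusted p above 0.05, and Mdm2, the ubiquitin ligase that degrades p53, stood at 13.8 CPM in PreIR-NTN and 13.3 CPM in NonIR libraries (95% interval −0.28 to 0.39). Btg2, an antiproliferative gene that is also an immediate early gene, ran the other way, with 261, 303, 279.8, 290.4 and 269 CPM in PreIR-NTN, against 389, 542 and 381 CPM in NonIR libraries (log2 fold change −0.64, 95% interval −1.02 to −0.26, edgeR adjusted p = 0.393). In the irradiated PreIR-GFP glands Psrc1 averaged 0.645 ± 0.306, Cdkn1a 18.6 ± 8.21 and Eda2r 4.31 ± 1.31 CPM (SD, n = 5), and for none of the 3 did PreIR-NTN differ from PreIR-GFP at the adjusted threshold.

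Proliferation genes also stood higher, though at low levels and with wide scatter among the NonIR libraries. Of 28 listed genes, 27 were tested, 21 with a positive log2 fold change and 6 with a negative one, and the median was 0.53. At an unadjusted p under 0.05, 6 were higher and 1 lower (4.28% and 3.69% of all genes). None passed adjustment in edgeR or DESeq2. With 1 library of either group left out the list median lay between 0.19 (without NonIR replicate 3) and 0.96 (without NonIR replicate 2), and the number higher at that p was 2 without NonIR replicate 3 and 12 without NonIR replicate 2. NonIR replicate 2 had a list median of 0.29 relative to the mean of the 8 libraries, above 4 of the 5 PreIR-NTN libraries. Cdca8, a subunit of the chromosomal passenger complex of mitosis, had 3.66, 2.64, 2.77, 2.9001 and 3.25 CPM in PreIR-NTN, against 1.3002, 2.45 and 0.981 CPM in NonIR libraries (log2 fold change 0.95, 95% interval 0.34 to 1.56, edgeR adjusted p = 0.417), and 1.405 ± 0.228 CPM in PreIR-GFP libraries (SD, n = 5). Ube2c, a ubiquitin-conjugating enzyme of mitotic exit, had 0.789, 0.469, 1.38, 1.38 and 2.06 CPM in PreIR-NTN, against 0.0684, 0.506 and 0.0817 CPM in NonIR libraries. NonIR replicate 2 alone overlapped with PreIR-NTN, and without it the log2 fold change was 3.85 in place of 2.47. Cdc20, an activator of the anaphase-promoting complex, averaged 1.402 ± 0.396 CPM in PreIR-NTN and 0.606 ± 0.3602 CPM in NonIR libraries (log2 fold change 1.21). Other mitotic genes had a log2 fold change of 1.08 (Ccnb2), 1.01 (Plk1) and 0.93 (Top2a), while the spindle motor Kif11 had the lowest value of the list (−1.24). The replication licensing genes Mcm2 to Mcm7 lay between −0.19 and 0.30. Pcna, the sliding clamp of DNA polymerases, was the member with an unadjusted p under 0.05 that stood lower, at 16.8 CPM in PreIR-NTN and 21.4 CPM in NonIR libraries (log2 fold change −0.35). Set against PreIR-GFP, the list had a median of 0.60 in PreIR-NTN, and 10 of the 27 were higher and 0 lower at an unadjusted p under 0.05 (2.36% and 3.73% of all genes).

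**Figure D2:**
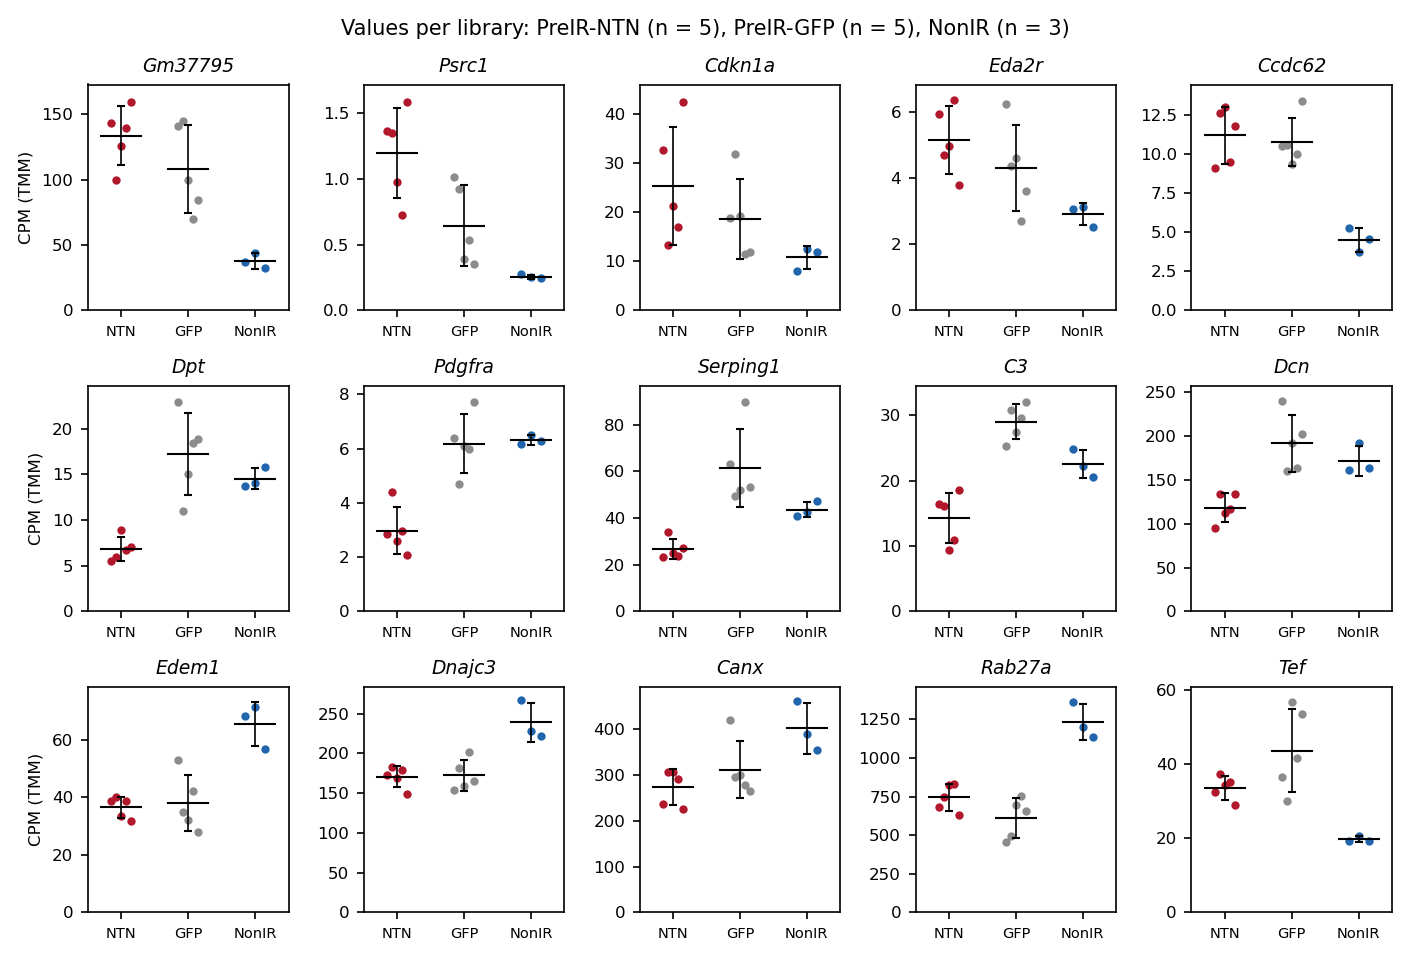
CPM per library for 15 genes chosen after their values were seen, with PreIR-NTN (n = 5, red), PreIR-GFP (n = 5, grey) and NonIR (n = 3, blue) from left to right, bars at the mean and error bars of 1 SD, each y axis starting at 0. Gm37795, Ccdc62 and the p53 targets lie above NonIR in PreIR-NTN; Dpt, Pdgfra, Serping1, C3 and Dcn lie below both other groups in PreIR-NTN; Edem1, Dnajc3 and Rab27a lie below NonIR in PreIR-NTN and PreIR-GFP.

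Fibroblast genes stood lower in PreIR-NTN glands than in NonIR glands, and lower than in PreIR-GFP glands as well. Of 17 listed genes 16 were tested, 15 had a negative log2 fold change, and the median was −0.46. The summed level of the list overlapped, with 519 to 746 CPM in PreIR-NTN and 509 to 1289.5 CPM in NonIR libraries. None of the 16 passed the edgeR adjustment, whereas DESeq2 called Dpt (adjusted p = 0.00583) and Pdgfra (adjusted p = 0.00835). At an unadjusted p under 0.05, 5 were lower, and in all 5 of them the groups did not overlap. Over all genes tested, 3.69% were lower at that p and 3.30% lay below without overlap. Dpt, which encodes the matrix protein dermatopontin, had 5.52, 5.98, 8.96, 6.74 and 7.06 CPM in PreIR-NTN, against 13.7, 14.1 and 15.9 CPM in NonIR libraries (log2 fold change −1.09, 95% interval −1.53 to −0.65, edgeR adjusted p = 0.128). Each PreIR-NTN value was below the lowest NonIR value. Pdgfra, the fibroblast receptor for platelet-derived growth factor, had 2.87, 4.399, 2.61, 2.97 and 2.06 CPM in PreIR-NTN, against 6.16, 6.498 and 6.29 CPM in NonIR libraries, where the 3 values differed little (log2 fold change −1.07, 95% interval −1.54 to −0.60, edgeR adjusted p = 0.238). The collagen-binding proteoglycans decorin and lumican showed the same order: Dcn had 95.3, 135, 113, 117 and 134 CPM in PreIR-NTN, against 162, 192 and 163 CPM in NonIR libraries (log2 fold change −0.54, 95% interval −0.86 to −0.22, edgeR adjusted p = 0.393). Lum averaged 14.4 ± 3.57 CPM in PreIR-NTN and 27.3 ± 2.36 CPM in NonIR libraries (log2 fold change −0.92). Thy1 was the member with a positive value (0.37). In bulk tissue, fewer fibroblasts and less of these RNAs per fibroblast cannot be told apart.

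PreIR-GFP glands, irradiated like PreIR-NTN glands, averaged 17.2 ± 4.47 CPM for Dpt, 6.18 ± 1.08 for Pdgfra and 192 ± 32.8 for Dcn (SD, n = 5). Between the irradiated groups Dpt fell in PreIR-NTN (log2 fold change −1.33, 95% interval −1.72 to −0.94, edgeR adjusted p = 0.0175), as did Serping1, the inhibitor of the C1 complement protease (log2 fold change −1.21, 95% interval −1.55 to −0.86, edgeR adjusted p = 0.0175); with the phospholipase gene Pla1a these were the 3 that passed there (0.0204% of genes tested). Over the list, PreIR-NTN had a median of −0.69 against PreIR-GFP, with 8 members lower and 0 higher at an unadjusted p under 0.05 (3.73% and 2.36% of all genes). Between these groups all 5 skeletal muscle markers tested were lower in PreIR-NTN at an unadjusted p under 0.05. Ckm was at 1.45 ± 0.537 CPM in PreIR-NTN and 10.3 ± 18.8 CPM in PreIR-GFP libraries (SD, n = 5 each). PreIR-GFP replicate 2 held 43.9 CPM of Ckm, and the other PreIR-GFP libraries 1.31 to 2.67 CPM. The muscle genes Mylpf (7.79 CPM) and Mb (3.37 CPM) were also highest in that library of the PreIR-GFP group. The part of muscle in these differences was not tested. In NonIR libraries Ckm was at 1.35 ± 0.176 CPM (SD, n = 3), close to PreIR-NTN. The matrix list was not lower as a whole: 29 of its 30 genes were tested, 17 with positive and 12 with negative values and a median of 0.053, which lay between −0.062 (without PreIR-NTN replicate 5) and 0.095 (without NonIR replicate 2) with 1 library left out. Its fibrillar collagens Col1a1 (0.063), Col1a2 (−0.26) and Col3a1 (−0.44) had unadjusted p-values above 0.05. Mmp3, the secreted protease stromelysin-1, stood at 4.16, 5.45, 5.62, 5.87 and 7.297 CPM in PreIR-NTN, against 9.31, 10.5 and 12.3 CPM in NonIR libraries, without overlap (log2 fold change −0.92, 95% interval −1.46 to −0.38, edgeR adjusted p = 0.393).

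Complement genes, which fibroblasts and macrophages both express, followed a similar order. Of 17 tested of 20, 13 had negative values (median −0.26). At an unadjusted p under 0.05, 4 were lower and none higher (3.69% and 4.28% of all genes). C1s1, a protease of the C1 complex, had 4.09, 6.63, 5.295, 4.495 and 6.19 CPM in PreIR-NTN, against 9.58, 8.19 and 10.8 CPM in NonIR libraries (log2 fold change −0.83, 95% interval −1.28 to −0.38, edgeR adjusted p = 0.369). Serping1 had 23.4, 33.96, 24.9, 23.7 and 27.1 CPM in PreIR-NTN, against 40.9, 42.7 and 47.3 CPM in NonIR libraries, with no overlap (log2 fold change −0.71, 95% interval −1.10 to −0.32, edgeR adjusted p = 0.369). The central component C3 had 16.4, 16.1, 9.45, 10.9 and 18.6 CPM in PreIR-NTN, against 24.8, 22.2 and 20.6 CPM in NonIR libraries (log2 fold change −0.66, 95% interval −1.06 to −0.26, edgeR adjusted p = 0.403). PreIR-GFP libraries averaged 11.5 CPM for C1s1, 61.5 for Serping1 and 29.04 for C3. The macrophage-made C1q chains C1qa (−0.35), C1qb (−0.26) and C1qc (−0.20) had intervals that included 0, and Clu, an inhibitor of the terminal complex, stood highest at 0.45.

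Immune cell markers leaned lower without a call. T and NK cell markers summed to 20.9 to 49.8 CPM in PreIR-NTN and 50.2 to 62.6 CPM in NonIR libraries, and 19 of 21 genes tested had negative values (median −0.45, and −0.26 without NonIR replicate 2), but 0 had an unadjusted edgeR p under 0.05 in either direction. PreIR-NTN replicate 3 lay lowest, with a list median of −0.94 on the log2 scale relative to the mean of the 8 libraries. Their median over the list was 0.0016 for PreIR-GFP over NonIR. Macrophage markers summed to 205 to 287 CPM in PreIR-NTN and 286 to 306 CPM in NonIR libraries, and 18 of 25 were negative (median −0.16). Trem2, a lipid receptor of tissue macrophages, ran against the list, with 3.23, 3.11, 3.01, 2.97 and 4.84 CPM in PreIR-NTN, against 1.71, 1.86 and 2.21 CPM in NonIR libraries (log2 fold change 0.83, 95% interval 0.33 to 1.34, edgeR adjusted p = 0.401). Cd14, the co-receptor for lipopolysaccharide, had 29.3, 29.3, 24.4, 25.9 and 30.6 CPM in PreIR-NTN, against 37.7, 38.3 and 40.5 CPM in NonIR libraries (log2 fold change −0.48, 95% interval −0.81 to −0.14, edgeR adjusted p = 0.481). The mast cell and granulocyte list had 4 genes above the filter, 2 with positive and 2 with negative values. Its mast cell proteases were low in both groups: Cma1 had 0.502, 0.117, 0.489, 0.363 and 0.634 CPM in PreIR-NTN, against 1.16, 1.94 and 0.654 CPM in NonIR libraries, with no overlap (log2 fold change −1.59, 95% interval −2.50 to −0.68, edgeR adjusted p = 0.393). Tpsb2 averaged 0.219 CPM in PreIR-NTN and 0.733 CPM in NonIR libraries, and its log2 fold change of −1.69 was −0.77 without NonIR replicate 2. Ltf, the granule protein lactoferrin, went the other way, with 3.87, 1.06, 1.38, 1.74 and 5.87 CPM in PreIR-NTN, against 0.547, 0.928 and 0.4903 CPM in NonIR libraries, without overlap (log2 fold change 2.07, 95% interval −0.33 to 4.48, edgeR adjusted p = 0.686). Kit, a receptor of mast cells that gland epithelium also expresses, averaged 83.9 ± 21.5 CPM in PreIR-NTN and 82.5 ± 1.17 CPM in NonIR libraries (log2 fold change 0.025). B and plasma cell markers summed to 579 to 1362 CPM in PreIR-NTN and 816 to 1896 CPM in NonIR libraries, with a median of −0.039, which lay between −0.24 (without PreIR-NTN replicate 2) and 0.16 (without NonIR replicate 2) with 1 library left out.

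Among inflammatory genes the interleukin-1 antagonists stood lower. Il1rn, the secreted receptor antagonist, had 3.15, 4.46, 4.56, 2.83 and 4.92 CPM in PreIR-NTN, against 7.66, 9.199 and 5.64 CPM in NonIR libraries (log2 fold change −0.91, 95% interval −1.43 to −0.40, edgeR adjusted p = 0.393), and 2.57 ± 0.629 CPM in PreIR-GFP libraries (SD, n = 5). The PreIR-NTN mean lay between those of the other groups. Il1r2, the decoy receptor, had 0.645, 1.23, 1.303, 1.09 and 0.476 CPM in PreIR-NTN, against 2.26, 2.62 and 1.798 CPM in NonIR libraries (log2 fold change −1.21, 95% interval −2.25 to −0.18, edgeR adjusted p = 0.555). These were the 2 members of 10 tested with an unadjusted p under 0.05, where 3.69% of all genes were lower at that p. The interferon list of 33 genes had a median of −0.071, with 1 higher and 1 lower at that p, and with 1 library left out the median lay between −0.17 (without NonIR replicate 3) and 0.19 (without NonIR replicate 2). Ddx58, the RNA sensor RIG-I, averaged 110.2 ± 14.4 CPM in PreIR-NTN and 81.9 ± 9.67 CPM in NonIR libraries, while the antiviral gene Rsad2 averaged 4.72 ± 0.607 CPM in PreIR-NTN and 6.79 ± 1.49 CPM in NonIR libraries (SD, n = 5 and 3). Junb, an AP-1 transcription factor of the immediate early class, had 2.87, 3.402, 2.77, 3.55 and 2.93 CPM in PreIR-NTN, against 5.95, 5.49 and 4.74 CPM in NonIR libraries (log2 fold change −0.79, 95% interval −1.25 to −0.33, edgeR adjusted p = 0.393), in a list of 15 tested genes with a median of −0.26. With 1 library left out that median lay between −0.39 (without NonIR replicate 3) and −0.059 (without NonIR replicate 2).

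Genes for protein folding in the endoplasmic reticulum (ER) stood lower in PreIR-NTN glands. Of 24 genes, all tested, 18 had negative values and the median was −0.27. At an unadjusted p under 0.05, 8 were lower and 1 higher (3.69% and 4.28% of all genes). In 9 every PreIR-NTN library lay below every NonIR library, and in 2 above (3.30% and 3.22% of all genes). None passed the edgeR adjustment, whereas DESeq2 called Edem1 (adjusted p = 0.0134), Dnajc3 (adjusted p = 0.0472) and Pdia4 (adjusted p = 0.0456). Edem1, which sends misfolded glycoproteins to degradation, had 38.7, 40.2, 33.6, 38.6 and 31.8 CPM in PreIR-NTN, against 68.3, 71.6 and 56.96 CPM in NonIR libraries (log2 fold change −0.84, 95% interval −1.21 to −0.47, edgeR adjusted p = 0.238). Dnajc3, a co-chaperone that inhibits the kinase PERK, had 173, 183, 169.6, 179 and 149.5 CPM in PreIR-NTN, against 267, 228 and 222 CPM in NonIR libraries (log2 fold change −0.49, 95% interval −0.75 to −0.23, edgeR adjusted p = 0.367). Canx, the lectin chaperone calnexin, had 237, 307, 307, 292 and 226 CPM in PreIR-NTN, against 463, 390.2 and 355 CPM in NonIR libraries (log2 fold change −0.56, 95% interval −0.90 to −0.21, edgeR adjusted p = 0.405). The disulfide isomerase Pdia4 averaged 166 ± 8.75 CPM in PreIR-NTN and 222 ± 8.42 CPM in NonIR libraries, and Hsp90b1, the ER member of the HSP90 family, 362 ± 31.4 CPM in PreIR-NTN and 475 ± 89.5 CPM in NonIR libraries (SD, n = 5 and 3). Hspa5, the master chaperone BiP, had 533, 522, 465, 446 and 451 CPM in PreIR-NTN, against 576, 559 and 623 CPM in NonIR libraries (log2 fold change −0.28, 95% interval −0.54 to −0.020, edgeR adjusted p = 0.61). Herpud1, a degradation factor of the ER membrane, ran the other way with 956, 1056, 876, 1109 and 867 CPM in PreIR-NTN, against 611, 697 and 754 CPM in NonIR libraries (log2 fold change 0.50, 95% interval 0.092 to 0.91, edgeR adjusted p = 0.545). The stress transcription factors Atf4 (0.29), Ddit3 (0.025) and Xbp1 (−0.22) had unadjusted p-values above 0.05. For PreIR-GFP over NonIR, with the same NonIR libraries, the list median was −0.36, and for PreIR-NTN over PreIR-GFP it was 0.060.

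Of the genes for exocytosis, Rab27a, a small GTPase of secretory granules, had 685, 748, 826, 834 and 628 CPM in PreIR-NTN, against 1361, 1201 and 1138 CPM in NonIR libraries (log2 fold change −0.73, 95% interval −1.07 to −0.38, edgeR adjusted p = 0.263). All 5 PreIR-NTN values lay below all 3 NonIR values, and PreIR-GFP libraries averaged 614 ± 130.1 CPM (SD, n = 5). Sytl4, an effector of Rab27 proteins, averaged 6.95 ± 1.12 CPM in PreIR-NTN and 9.14 ± 1.51 CPM in NonIR libraries, and Snap23, a SNARE of the plasma membrane, 46.2 ± 4.95 CPM in PreIR-NTN and 55.996 ± 1.32 CPM in NonIR libraries. Those were the 3 of 19 tested with an unadjusted p under 0.05, all lower (3.69% of all genes), and the list median was −0.0015. Vamp8 and Stxbp2, further parts of the release machinery, averaged 277 and 208 CPM in PreIR-NTN and 262 and 204 CPM in NonIR libraries. Mal2, which acts in transport to the apical membrane, had 45.7, 60.1, 68.4, 50.4 and 46.2 CPM in PreIR-NTN, against 103, 94.01 and 75.8 CPM in NonIR libraries (log2 fold change −0.75, 95% interval −1.12 to −0.38, edgeR adjusted p = 0.309). Tex2, a lipid-binding ER membrane protein, averaged 391 CPM in PreIR-NTN and 659 CPM in NonIR libraries (log2 fold change −0.75, 95% interval −1.11 to −0.39, edgeR adjusted p = 0.263). DESeq2 called Rab27a (adjusted p = 0.0233) and Tex2 (adjusted p = 0.0459) and did not call Mal2.

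The acinar markers Aqp5 and Bhlha15 differed by less than a doubling or halving, whereas several secretory products were high in 1 or 2 NonIR libraries. Aqp5, the water channel of acinar cells, averaged 191 ± 24.4 CPM in PreIR-NTN and 176 ± 21.9 CPM in NonIR libraries (SD, n = 5 and 3), and its interval (−0.29 to 0.54) lay inside a doubling or halving, as did those of 69.9% of genes tested. Bhlha15, the transcription factor Mist1 of secretory cells, averaged 207 ± 48.2 CPM in PreIR-NTN and 188 ± 17.7 CPM in NonIR libraries (95% interval −0.32 to 0.61). Amy1, salivary amylase, had 19.3, 19.3, 18.3, 20.7 and 25.2 CPM in PreIR-NTN, against 32.2, 68.6 and 273 CPM in NonIR libraries (log2 fold change −2.60, 95% interval −3.81 to −1.38, edgeR adjusted p = 0.309). NonIR replicate 3 was the highest, and without it the log2 fold change was −1.29. Chia1, a chitinase, had 8.24, 2.82, 6.92, 5.51 and 5.63 CPM in PreIR-NTN, against 5.201, 58.7 and 582 CPM in NonIR libraries, and NonIR replicate 1 fell among the PreIR-NTN values. Smr3a, a submaxillary androgen-regulated protein, had 0.143, 0, 0.0815, 0 and 0.397 CPM in PreIR-NTN, against 0, 3.29 and 29.5 CPM in NonIR libraries. Cst10, a cystatin, had 0, 0, 0, 0 and 2 reads in PreIR-NTN, against 3, 45 and 264 reads in NonIR libraries, a ratio of 0.00356 (95% counting interval 0.000429 to 0.0130). Without NonIR replicate 3, which held 264 of the 312 NonIR reads, the ratio was 0.0158 (95% counting interval 0.00186 to 0.0604). NonIR replicate 3 was the highest and NonIR replicate 1 the lowest of the NonIR libraries in all 4 genes, and the cause was not tested. Bpifa2, an abundant secreted protein, had 41639, 14479, 42019.7, 17819.6 and 29983 CPM in PreIR-NTN, against 10247, 12499 and 18255 CPM in NonIR libraries, with overlap (log2 fold change 1.09, 95% interval 0.38 to 1.81, edgeR adjusted p = 0.443). All 21 listed genes with an entry were tested, and 14 had positive values. At an unadjusted p under 0.05, 1 was higher and 4 were lower (4.28% and 3.69% of all genes). None of the list passed the edgeR adjustment, whereas DESeq2 called Amy1 (adjusted p = 0.0001565) and Chia1 (adjusted p = 0.00166). Smgc, submandibular gland protein C, averaged 78662 ± 44157 CPM in PreIR-NTN and 119140.0 ± 35948 CPM in NonIR libraries (log2 fold change −0.60, 95% interval −1.66 to 0.47, edgeR adjusted p = 0.81); it was 39418 CPM in PreIR-GFP libraries. Its log2 fold change was −0.36 without PreIR-NTN replicate 1 and −0.32 without NonIR replicate 2.

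Products of the granular convoluted tubules had mostly negative log2 fold changes, 16 of 19, with a median of −0.34, but none had an unadjusted p under 0.05. With 1 library left out that median lay between −0.50 (without NonIR replicate 1) and −0.15 (without PreIR-NTN replicate 2). Crisp3, a cysteine-rich secretory protein, had 13269, 11184, 12809.7, 11824 and 12137 CPM in PreIR-NTN, against 17656, 20172 and 14318 CPM in NonIR libraries, without overlap (log2 fold change −0.51, 95% interval −1.02 to 0.0097, edgeR adjusted p = 0.637). The summed level of the list was 31705 to 66324 CPM in PreIR-NTN and 52406 to 73152 CPM in NonIR libraries, with PreIR-NTN replicates 2 and 3 lowest. The kallikreins of this list are near-identical copies, and the counting could have split reads among them. Egf had a 95% interval of −1.38 to 0.85.

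Genes of fluid secretion were bounded tightly. Of 21 tested, 19 had a 95% interval inside a doubling or halving, and the median was 0.049, or 0.13 without PreIR-NTN replicate 2. Atp1b1, a subunit of the sodium pump, averaged 254 ± 24.98 CPM in PreIR-NTN and 197 ± 36.96 CPM in NonIR libraries (log2 fold change 0.36). The calcium release channels Itpr3 (log2 fold change 0.55, 95% interval 0.12 to 0.99, edgeR adjusted p = 0.533) and Itpr2 (log2 fold change 0.33) stood higher at an unadjusted p under 0.05. Chrm3, the main muscarinic receptor for acetylcholine, averaged 2.57 CPM in PreIR-NTN and 3.38 CPM in NonIR libraries (95% interval −1.07 to 0.30), and Slc12a2, the basolateral chloride entry route, 266 CPM in PreIR-NTN and 274 CPM in NonIR libraries (95% interval −0.43 to 0.34). Of the duct genes, Scnn1g, a subunit of the epithelial sodium channel, averaged 42.8 ± 8.82 CPM in PreIR-NTN and 59.7 ± 6.12 CPM in NonIR libraries, and its fellow subunits Scnn1b (−0.38) and Scnn1a (−0.29) were lower with unadjusted p-values above 0.05. Krt14 of basal and myoepithelial cells averaged 48.5 CPM in PreIR-NTN and 52.7 CPM in NonIR libraries (95% interval −0.48 to 0.24), and Acta2 of myoepithelial and smooth muscle cells 337 CPM in PreIR-NTN and 399 CPM in NonIR libraries (95% interval −0.56 to 0.077).

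**Figure D3:**
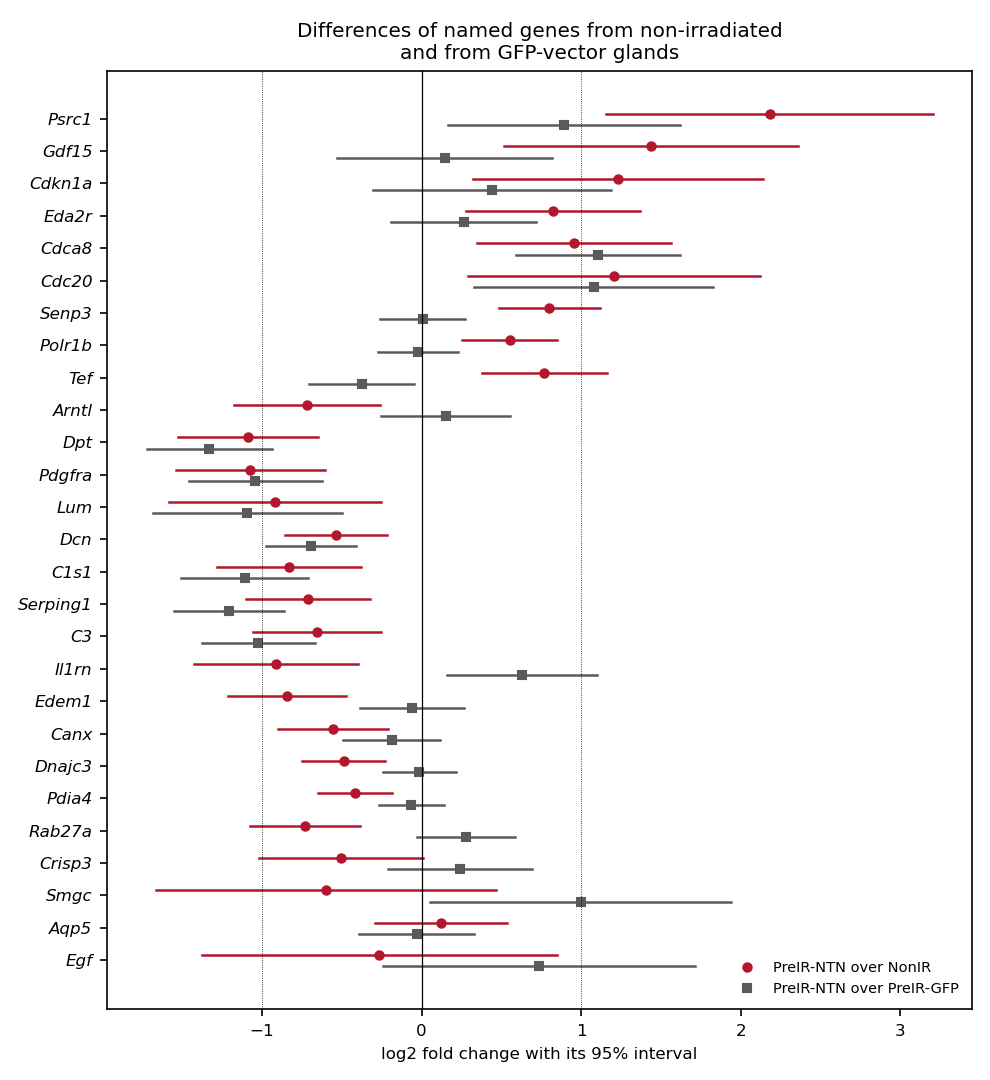
Log2 fold changes (x axis) with 95% intervals for 27 genes (y axis), as PreIR-NTN over NonIR in red circles and PreIR-NTN over PreIR-GFP in grey squares, with dotted lines at a halving and a doubling. Stromal and complement genes from Dpt to C3 lie left of 0 in both comparisons, whereas Senp3, Edem1, Dnajc3 and Pdia4 lie away from 0 against NonIR and near 0 against PreIR-GFP.

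Clock genes did not share 1 direction. Tef, a PAR-domain transcription factor driven by the circadian clock, had 32.4, 37.5, 34.3, 35.3 and 28.9 CPM in PreIR-NTN, against 19.3, 20.7 and 19.3 CPM in NonIR libraries, without overlap (log2 fold change 0.77, 95% interval 0.38 to 1.16, edgeR adjusted p = 0.309), and 43.7 ± 11.3 CPM in PreIR-GFP libraries (SD, n = 5). Arntl, which encodes the clock activator BMAL1, had 14.9, 16.7, 17.1, 15.5 and 16.4 CPM in PreIR-NTN, against 28.7, 18.9 and 31.9 CPM in NonIR libraries (log2 fold change −0.72, 95% interval −1.17 to −0.26, edgeR adjusted p = 0.417). Per2, a repressor of BMAL1, had 1.58, 1.82, 1.14, 1.52 and 1.67 CPM in PreIR-NTN, against 0.274, 0.591 and 0.817 CPM in NonIR libraries (log2 fold change 1.48, 95% interval 0.38 to 2.58, edgeR adjusted p = 0.516). All 19 list members were tested, with 12 positive values and a median of 0.26. Only these 3 had an unadjusted p under 0.05, where 7.97% of all genes did. With 1 library left out the median lay between 0.10 (without PreIR-NTN replicate 3) and 0.31 (without PreIR-NTN replicate 2). DESeq2 called Tef (adjusted p = 0.0456). No label gives the time of day of collection.

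Promoter windows show which of these genes carry the letters that clock proteins are known to bind. BMAL1 with its partner CLOCK binds the E-box CACGTG, and TEF, DBP and HLF bind the D-box TTANGTAA. In the 250 bases upstream of RefSeq gene starts, searched on both strands, 16 of 19 clock genes had a window, of which 5 held an E-box (Per1, Cry1, Tef, Ciart and Bhlhe41) and 1 a D-box (Per3). Among all 27025 genes with a window, 6.86% held an E-box and 2.44% a D-box. Both alternative Tef windows hold 1 E-box, and the Per3 window holds 2 D-boxes, in capitals below. The windows are Tef at chr15:81802423-81802672 (+ strand) and chr15:81811164-81811413 (+ strand), and Per3 at chr4:151044666-151044915 (- strand), on GRCm38.p6, written 5′ to 3′ on the gene's strand.
Tef, first window: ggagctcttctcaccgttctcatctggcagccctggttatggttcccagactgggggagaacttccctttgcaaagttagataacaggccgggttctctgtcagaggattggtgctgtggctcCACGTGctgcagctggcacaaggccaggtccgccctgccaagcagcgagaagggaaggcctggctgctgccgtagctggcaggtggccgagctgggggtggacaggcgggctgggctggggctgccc
Tef, second window: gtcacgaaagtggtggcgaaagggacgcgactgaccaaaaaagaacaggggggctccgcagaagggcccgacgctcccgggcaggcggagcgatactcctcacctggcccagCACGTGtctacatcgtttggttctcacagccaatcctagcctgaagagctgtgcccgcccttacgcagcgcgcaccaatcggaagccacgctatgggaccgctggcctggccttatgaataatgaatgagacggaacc
Per3: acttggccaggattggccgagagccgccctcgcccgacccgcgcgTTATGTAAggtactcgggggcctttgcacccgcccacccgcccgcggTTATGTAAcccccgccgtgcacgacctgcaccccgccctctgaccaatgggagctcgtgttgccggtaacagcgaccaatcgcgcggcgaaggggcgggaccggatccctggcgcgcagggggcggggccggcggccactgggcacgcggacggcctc
The 5 genes with an E-box had log2 fold changes of 0.77 (Tef), 0.71 (Ciart), 0.58 (Per1), −0.051 (Bhlhe41) and −0.064 (Cry1), and Per3 had 0.54. A match to these letters is a description and not a bound site.

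Nucleolar factors included several of the genes with the smallest p-values. Senp3, a SUMO protease of the nucleolus, had 65.2, 94.1, 83.7, 102 and 77.2 CPM in PreIR-NTN, against 43.2, 50.5 and 51.97 CPM in NonIR libraries (log2 fold change 0.80, 95% interval 0.48 to 1.12, edgeR adjusted p = 0.128). Utp14a, needed for processing of the small ribosomal subunit, had 45.7, 58.4, 49.4, 48.6 and 54.6 CPM in PreIR-NTN, against 38.5, 31.98 and 35.9 CPM in NonIR libraries (log2 fold change 0.53, 95% interval 0.28 to 0.79, edgeR adjusted p = 0.266). Polr1b, a core subunit of RNA polymerase I, had 30.8, 35.3, 30.5, 27.99 and 35.2 CPM in PreIR-NTN, against 23.4, 19.3 and 22.6 CPM in NonIR libraries (log2 fold change 0.55, 95% interval 0.25 to 0.85, edgeR adjusted p = 0.369). In all 3 genes the groups did not overlap, and PreIR-GFP libraries averaged 84.2, 48.5 and 32.4 CPM. DESeq2 called Senp3 (adjusted p = 0.000567) and Utp14a (adjusted p = 0.0112) and did not call Polr1b. Utp14a was not a member of the nucleolar list. That list of 20 had 15 positive values and a median of 0.10. At an unadjusted p under 0.05, 3 members, Senp3 and Polr1b among them, were higher and none lower (4.28% and 3.69% of all genes). The list median lay between 0.027 (without NonIR replicate 2) and 0.16 (without NonIR replicate 3) with 1 library left out. Nucleolin, encoded by Ncl, averaged 90.2 CPM in PreIR-NTN and 99.2 CPM in NonIR libraries (95% interval −0.39 to 0.11). Ribosomal protein genes were divided: Rpl3 had 243, 313, 263, 294 and 276 CPM in PreIR-NTN, against 444, 389.9 and 371 CPM in NonIR libraries (log2 fold change −0.53, 95% interval −0.78 to −0.29, edgeR adjusted p = 0.263), while Rpl5, part of the particle that restrains Mdm2, had 128, 133, 163, 147 and 179 CPM in PreIR-NTN, against 93.5, 110.5 and 114 CPM in NonIR libraries (log2 fold change 0.50, 95% interval 0.19 to 0.81, edgeR adjusted p = 0.405). Of Rpl3 and Rpl5, DESeq2 called Rpl3 alone (adjusted p = 0.00309). Ribosomal protein genes have many processed pseudogenes, and small nucleolar RNA genes lie within Rpl3, so the counting could affect both values.

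The remaining genes with the lowest p-values and no overlap, at a mean of at least 5 CPM, belong to no single list. On the higher side stood Ccdc137 (26.5, 27.6, 25.7, 31.6 and 28.1 CPM in PreIR-NTN, against 16.6, 14.7 and 17.2 CPM in NonIR libraries, log2 fold change 0.79, 95% interval 0.51 to 1.07, edgeR adjusted p = 0.073), which passed when PreIR-GFP replicate 1 or 5 was left out. Topbp1, a scaffold that activates the checkpoint kinase ATR, had 15.7, 17.6, 20.2, 18.1 and 22.9 CPM in PreIR-NTN, against 9.72, 13.1 and 11.3 CPM in NonIR libraries (log2 fold change 0.73, 95% interval 0.41 to 1.06, edgeR adjusted p = 0.243), and 13.4 ± 1.097 CPM in PreIR-GFP libraries (SD, n = 5). Cpt1c, a brain-type carnitine palmitoyltransferase, had 12.2, 11.6, 7.33, 8.77 and 9.91 CPM in PreIR-NTN, against 3.901, 4.39 and 4.25 CPM in NonIR libraries (log2 fold change 1.25, 95% interval 0.68 to 1.83, edgeR adjusted p = 0.263). The zinc finger genes Zfp952 (0.67) and Zfp263 (0.61), the Ral exchange factor Ralgds (0.68), Cobll1 (0.79) and the processed pseudogene Gm6548 (0.88) completed the 12. On the lower side Dpysl3, a cytoskeletal protein of the collapsin response mediator family, had 45.2, 46.7, 38.9, 48.3 and 41.5 CPM in PreIR-NTN, against 83.4, 68.02 and 65.5 CPM in NonIR libraries (log2 fold change −0.71, 95% interval −0.99 to −0.43, edgeR adjusted p = 0.128). Zdhhc2, a palmitoyltransferase, had 24.02, 18.4, 29.8, 27.04 and 22.8 CPM in PreIR-NTN, against 45.03, 44.3 and 37.3 CPM in NonIR libraries (log2 fold change −0.79, 95% interval −1.11 to −0.47, edgeR adjusted p = 0.128). Mrfap1 (−0.69), the guanine exchange factor Spata13 (−0.73) and the small GTPase Arl4a (−0.51) had values of the same sign. Among these genes on either side, DESeq2 called all but Cobll1. Another gene is annotated on the opposite strand at Zdhhc2, Dpt, Cpt1c, Utp14a, Cobll1, Pdgfra, Tef, C1s1 and Rpl3, and a pseudogene on the same strand overlaps Rab27a. No strand setting is stated, so reads of such partners could be included in these counts. Against PreIR-GFP, Dpysl3 had a log2 fold change of −0.051 (95% interval −0.30 to 0.20) and Zdhhc2 0.10 (95% interval −0.18 to 0.39).

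Regulators of epithelial and glial fate differed by gene. Sox10, a transcription factor of Schwann cells that acinar cells also express, had 46.8, 36.8, 35.3, 44.2 and 45.8 CPM in PreIR-NTN, against 21.6, 25.1 and 32.2 CPM in NonIR libraries (log2 fold change 0.67, 95% interval 0.23 to 1.11, edgeR adjusted p = 0.443), and 41.2 ± 10.5 CPM in PreIR-GFP libraries (SD, n = 5). Mbp, myelin basic protein, of the Schwann and glia list averaged 12.2 CPM in PreIR-NTN and 9.84 CPM in NonIR libraries (95% interval −0.039 to 0.67). Of 8 genes tested in that list 7 had positive values, and the median was 0.21. At an unadjusted p under 0.05, 1 was higher and 0 lower (4.28% and 3.69% of all genes). The list summed to 136 to 155 CPM in PreIR-NTN and 114 to 132 CPM in NonIR libraries. Its median was 0.45 for PreIR-GFP over NonIR and −0.018 for PreIR-NTN over PreIR-GFP. Sox9, a factor of duct and progenitor cells, averaged 55.8 ± 8.802 CPM in PreIR-NTN and 81.8 ± 13.4 CPM in NonIR libraries (log2 fold change −0.55), and Tfcp2l1, a factor of ducts, 512 ± 35.3 CPM in PreIR-NTN and 627 ± 62.998 CPM in NonIR libraries. Etv5, a transcription factor downstream of FGF signalling, averaged 7.44 ± 2.02 CPM in PreIR-NTN and 4.4003 ± 0.771 CPM in NonIR libraries. Among growth factor genes, the FGF receptor Fgfr1 had 7.89, 9.502, 8.23, 8.05 and 14.8 CPM in PreIR-NTN, against 4.93, 7.595 and 6.701 CPM in NonIR libraries (log2 fold change 0.60, 95% interval 0.10 to 1.10, edgeR adjusted p = 0.553); PreIR-NTN replicate 5 was the highest, and without it the log2 fold change was 0.40. Fgf1, an FGF ligand, averaged 45.1 CPM in PreIR-NTN and 57.2 CPM in NonIR libraries (log2 fold change −0.34, 95% interval −0.63 to −0.054, edgeR adjusted p = 0.555).

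Nerve transcripts were scarce in all libraries. Of 25 parasympathetic and neuronal genes 10 passed the filter on low counts, and apart from Slitrk4 none of them had an unadjusted p under 0.05. Chat and Slc18a3, which make and load acetylcholine, were below the filter with 4 and 7 reads summed over PreIR-NTN and 4 and 1 reads over NonIR libraries. Vip, a parasympathetic neuropeptide, averaged 0.431 CPM in PreIR-NTN and 0.493 CPM in NonIR libraries (95% interval −2.49 to 2.02). For Vip, a difference beyond a doubling or halving was neither shown nor bounded in either direction. Of 16 endothelial genes tested, 1 was higher and 1 lower at an unadjusted p under 0.05, with a list median of −0.012. The higher one was Tie1, a receptor tyrosine kinase, with 3.51, 2.99, 2.12, 2.61 and 1.74 CPM in PreIR-NTN, against 1.09, 1.77 and 2.04 CPM in NonIR libraries (log2 fold change 0.68, 95% interval 0.088 to 1.27, edgeR adjusted p = 0.574). The lower one was Vwf. Vwf, von Willebrand factor, had 5.88, 9.27, 5.95, 8.05 and 10.6 CPM in PreIR-NTN, against 9.65, 21.5 and 11.3 CPM in NonIR libraries, and its log2 fold change of −0.83 was −0.40 without NonIR replicate 2. Pecam1, a general endothelial marker, averaged 11.1 CPM in PreIR-NTN and 11.7 CPM in NonIR libraries (95% interval −0.52 to 0.36).

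**Figure D4:**
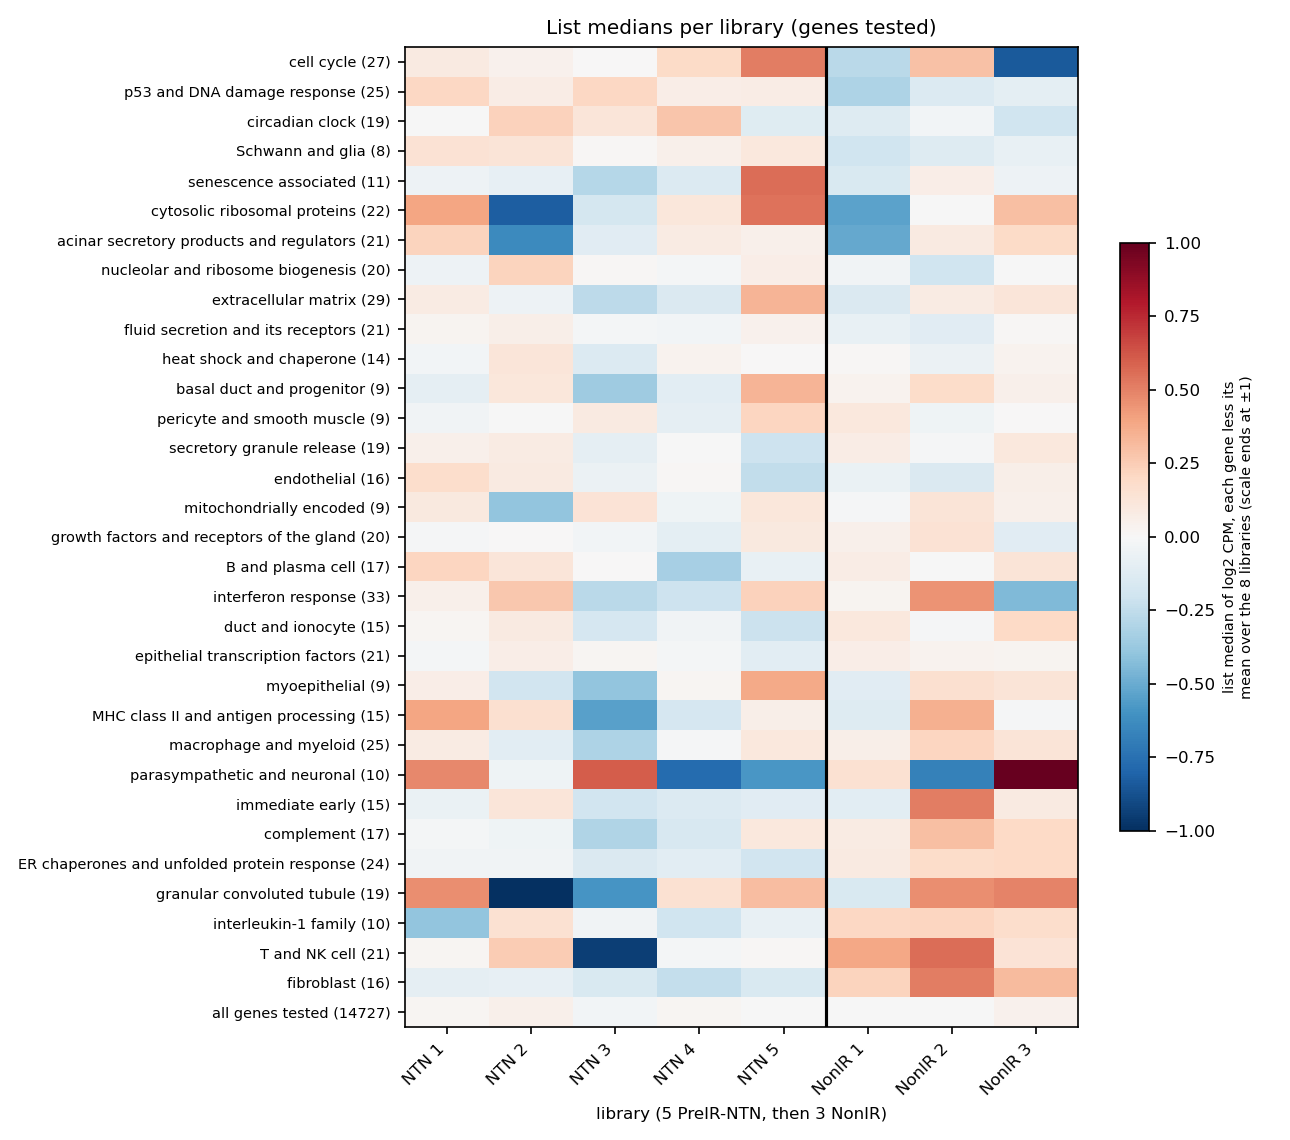
Median over each list's tested genes (rows, number tested in parentheses) of log2 CPM less the gene's mean over the 8 libraries, for 5 PreIR-NTN and then 3 NonIR libraries (columns), with blue below and red above 0. Fibroblast and ER chaperone rows are below 0 in every PreIR-NTN library and above 0 in every NonIR library. The p53 row and the Schwann and glia row show the reverse. The granular convoluted tubule, T and NK cell and neuronal rows vary strongly within a group.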

How the data were processed

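RNA of mouse submandibular glands was measured by RNA-seq in 13 libraries. Per the labels' protocols, RNA was purified with a column kit, cDNA was made with the SMART-Seq v4 kit, libraries were made with Nextera XT, and a NextSeq 500 read them. The submitters' processing notes name STAR 2.5.2a for alignment, the build GRCm38.p3 (mm10), and the packages edgeR, limma and DESeq2 without their roles. A counting tool and its strand setting are not given in the sources here. Where the design text of the series disagrees with the labels on instrument, aligner and replicate number, the labels were followed. The authors deposited raw read counts per gene, with 48733 entries, of which 24 are spike-in and transgene sequences kept out of library sizes and tests. The authors also deposited normalised signal values, each library's counts times 1 constant (CPM of the TMM-scaled library) for 17957 entries, used for 1 alternative only.

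Genes were filtered with filterByExpr, which left 14727, scaled by TMM and fitted over all 13 libraries with 1 mean per group by the quasi-likelihood test of edgeR 4.0.16 (R 4.3.3). P-values are two-sided adjusted by Benjamini-Hochberg across the genes tested, with a threshold of 0.05. The biological coefficient of variation was 0.265 and the median standard error of a log2 fold change 0.236. On simulated counts for PreIR-NTN against NonIR over 14727 genes, the same fit called 28 of 50 genes lowered and 14 of 50 genes raised by 1 on the log2 scale, and 43 and 45 of 50 at 2, with 5 other genes called. Lists are described by counts and medians, with no set test. Named genes were those past the threshold, the 12 of lowest p on each side with a mean of at least 5 CPM and no overlap of groups, per list the 2 members of lowest p and the 2 of highest level, and Nrtn, Gfra2, Ret and the transgene entries; other list members are named for context and were chosen after their values were seen. The members and the 37 lists were chosen with earlier results of these data known. Of the listed genes, 102 fell below the filter and 3 had no entry. Coordinates came from GENCODE mouse release M21 and sequences from RefSeq (GRCm38.p6). Alternatives were other size factors, 2 other filters, DESeq2 1.42.0, voom of limma 3.58.1, a fit to the 8 libraries alone, a replicate block, the deposited normalised values, and leaving out each library. No 2 libraries of a group agreed within sampling noise: the closest, NonIR replicates 2 and 3, had a chi-square of 31.8 per gene.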

Additional observations from a re-analysis of the deposited data

Results flagged for a closer look

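In 7 of the 141 named genes 1 PreIR-NTN library lay apart from the other 4 by Dixon's criterion. Chance alone meets it in about 1 of 20 groups, so this number is no more than chance gives, and the 7 genes are listed as values. Ralgds was low in PreIR-NTN replicate 3, at 14.1 CPM, where the others held 19.1 to 20.8 CPM. Trem2 was high in PreIR-NTN replicate 5, at 4.84 CPM against 2.97 to 3.23 CPM in the others, and so was Fgfr1, at 14.8 CPM against 7.89 to 9.50 CPM. Cst10 was at 0.159 CPM in PreIR-NTN replicate 5 and at 0 in the others. The mitochondrial mt-Cytb was low in PreIR-NTN replicate 2, at 262 CPM against 379 to 421 CPM. Car3, a carbonic anhydrase of fat and muscle, reached 211 CPM in PreIR-NTN replicate 3, against 0.508 to 26.2 CPM in the others, and without that library its log2 fold change over NonIR was −1.12 in place of 1.37. Nos1 was high in PreIR-NTN replicate 1, at 26.5 CPM against 20.8 to 22.1 CPM.

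Dpt and Serping1 stood lower in PreIR-NTN than in PreIR-GFP libraries by the edgeR test, with log2 fold changes of −1.33 and −1.21. No irradiated group went without a vector, so the effect of either vector alone was not measured.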

How the results depend on the processing

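The 3 genes called, 2 higher and 1 lower, became 31 with DESeq2 (12 higher, 19 lower), 1 with limma-voom (1 higher, 0 lower) and 0 with a replicate block (0 higher, 0 lower, with 879 genes at an unadjusted p under 0.05). With the 8 libraries alone 1 gene was higher, without a filter 2 were lower, and with at least 1 CPM in 3 libraries, or with the deposited normalised values in limma, 0 were lower. Leaving out 1 library at a time gave 0 to 4 calls, with 0 to 3 higher and 0 to 2 lower. Why the counts moved was not tested. Same-numbered PreIR-NTN and NonIR libraries did not deviate together in replicates 1, 2 and 3 (correlations −0.276, −0.227 and −0.154). These few values cannot decide whether a number marks a shared batch or day, and PreIR-GFP libraries were not compared in this way. Among the alternative log2 fold changes of 141 named genes, 26 lost and 27 gained an adjusted p under 0.05, and 19 from DESeq2 had no adjusted p. No gene at an unadjusted p under 0.05 changed sign; among the others the sign turned 51 times and 18 values moved by more than their standard error.

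Genes near the floor of 3 reads, such as Slitrk4, are limited by counting error, and the 3 NonIR libraries limit every comparison. Of the genes tested, 69.9% had an interval inside a doubling or halving. The intervals of the rest reached beyond it, and a few, such as that of Gm37795 (1.31 to 2.33), lay wholly beyond it. Where an interval only reached beyond it, a difference of that size was neither shown nor bounded.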
